A study of Mus musculus with 6 samples.

Results

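The regions described here are stretches of the mouse genome between protein-coding genes that were called enriched for 5-hydroxymethylcytosine (5hmC) in all 4 of its flox and KO libraries. Peaks of these libraries were pooled and overlapping peaks (1 bp or more) were merged. A merged region was kept when it lay on an autosome, held a peak of all 4 libraries, was under 2500 bp wide, and had its midpoint outside every RefSeq protein-coding gene, more than 1 kb and at most 100 kb from the nearest gene end. This rule picked 24347 of 174070 merged regions (14.0%), which is 35.4% of the 68764 regions called in all 4 libraries. They are called constant intergenic regions below. They were chosen by the peak calls of these same 4 libraries, the width of the merged peaks and their place, so those values are given only as a description. The word intergenic holds for protein-coding genes only, since 4153 of the regions (17.1%) had their midpoint inside another RefSeq gene, and 3832 (15.7%) inside a long non-coding RNA gene.

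5hmC is made from 5-methylcytosine by the TET dioxygenases (TET1, TET2 and TET3), and it is an intermediate of active DNA demethylation as well as a stable mark. In many tissues it is found in the bodies of transcribed genes and at distal enhancers, the regulatory elements that lie between genes and act on promoters over a distance. TET2 is often mutated in myeloid leukaemia and in clonal haematopoiesis. AML1-ETO, made by a chromosome translocation in acute myeloid leukaemia, joins the DNA-binding domain of RUNX1 to the corepressor-binding protein ETO (RUNX1T1).

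The cells were cultured from Kit-enriched bone marrow of C57BL/6 Tet2fl/fl;CreER mice. All cultures carried AML1-ETO and GFP from the retrovirus MigR1-AE-IRES-GFP. They had been sorted for GFP, replated in methylcellulose and then grown in suspension with SCF, IL-3 and IL-6. Flox cultures (genotype label Tet2fl/fl) were given ethanol. KO cultures (genotype label Tet2-/-) were given 200 nM 4-hydroxytamoxifen (4-OHT), the drug that turns on CreER, for 2 passages (4 days). From these cultures, immature myeloid cells were sorted as GFP+ and CD16/32+ cells without CD11b or Gr1, and the labels give passage 5. The 2 flox and 2 KO libraries were made by DNA immunoprecipitation of 5hmC-bearing fragments and sequenced. Whether the replicates came from separate cultures or animals is not stated, so p-values measure only the spread between these libraries, which may be technical. Effects of the drug and of active Cre, present only in KO cultures, cannot be told apart from those of losing Tet2. Peak lists hold no RNA, so the sorted cell type was not checked against expressed markers. The lists held 116539 to 122101 peaks, and the number of reads behind them was unknown.

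Among the microRNA genes that lay in constant intergenic regions were Mir196b, in the Hoxa cluster of blood stem cell transcription factors, and Mir200c, an epithelial microRNA. Of 176 RefSeq microRNA hairpins (GRCm38.p6) in the same zone of 1 to 100 kb from a gene end, 7 (3.98%) lay wholly inside a constant region, and 161 (91.5%) touched no peak of any library. The constant regions cover 4.44% of the zone, so the share of hairpins was near the share of sequence. The 7 were Mir6349, Mir327, Mir7217, Mir194-2, Mir196b, Mir200c and Mir138-1. Mature sequences of 4 of them are shown, 5′ to 3′, because a constant region covers the DNA that encodes them. Capitals mark the seed (bases 2 to 8), which pairs with target mRNAs.
mmu-miR-196b-5p: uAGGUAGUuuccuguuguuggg
mmu-miR-138-5p: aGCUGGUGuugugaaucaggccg
mmu-miR-200c-3p: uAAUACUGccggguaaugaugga
mmu-miR-194-5p: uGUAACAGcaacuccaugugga
None of the mature sequences compared from these hairpins shared a seed with another of them. Mir327 had no mature sequence in this comparison. In the RefSeq table the seed of miR-196b-5p is shared by miR-196a-5p, and that of miR-200c-3p by miR-200b-3p and miR-429-3p.

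The Mir196b hairpin (chromosome 6, 52230081 to 52230165, minus strand) lay in a constant region at 52229252 to 52230858, whose midpoint was 1.142 kb from the 3′ end of Hoxa10. Peaks covered 695 and 1447 bp of this region in flox replicates 1 and 2, and 763 and 1016 bp in KO replicates 1 and 2. The authors' peak scores there, which are -10 times the log10 of the peak's p-value, were 78.4 and 111.59 in flox versus 82.89 and 97.83 in KO. The called lengths in flox spanned those in KO. The Mir138-1 region (chromosome 9, 122681629 to 122683773) ranked highest of the 7, with 2085 and 2030 bp called in flox versus 2020 and 2053 bp in KO. Its scores were 556.98 and 547.09 in flox versus 540.6 and 500.39 in KO, and the called lengths of the 2 groups overlapped. Scores depend on depth, so they are printed as values of each list and not compared between groups.

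Start sites of long non-coding RNA (lncRNA) genes that lay in constant intergenic regions were mostly poor in CpG, the dinucleotide on which TET enzymes act. Of the lncRNA start-site windows of RefSeq (GRCm38.p6, 250 bases before to 50 after the start, 300 bases in all) in the zone, 197 lay wholly inside a constant region and 3552 touched no peak. The windows inside constant regions held a median of 3 CpG (quartiles 2 and 6) at a median GC content of 50.7%. Windows that touched no peak held a median of 4 CpG (2 and 6) at 47.3% GC, and all 32851 RefSeq windows held a median of 7. At least 15 CpG were present in 8 windows (4.06%) inside constant regions, in 151 (4.25%) of those without a peak, and in 34.6% of all windows. The windows are a description of the sequence, and no test between them was made.

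Shown first is the window of 6720468P15Rik, taken for the high rank of its region in every list. The windows of 1700028I16Rik, the richest in CpG of the 197, and of the CpG-rich Mir1a-1hg follow. Genes with symbols of Gm or LOC plus digits were left out of this choice. CpG is in capitals, and all are on the plus strand of GRCm38.
6720468P15Rik (chr19:57508314-57508613): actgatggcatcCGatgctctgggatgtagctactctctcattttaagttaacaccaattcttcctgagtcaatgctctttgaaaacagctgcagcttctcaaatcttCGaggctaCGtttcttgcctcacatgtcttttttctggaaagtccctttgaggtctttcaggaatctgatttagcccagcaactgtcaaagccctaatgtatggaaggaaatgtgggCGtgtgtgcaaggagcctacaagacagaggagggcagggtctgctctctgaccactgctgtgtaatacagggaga
1700028I16Rik (chr10:82811873-82812172): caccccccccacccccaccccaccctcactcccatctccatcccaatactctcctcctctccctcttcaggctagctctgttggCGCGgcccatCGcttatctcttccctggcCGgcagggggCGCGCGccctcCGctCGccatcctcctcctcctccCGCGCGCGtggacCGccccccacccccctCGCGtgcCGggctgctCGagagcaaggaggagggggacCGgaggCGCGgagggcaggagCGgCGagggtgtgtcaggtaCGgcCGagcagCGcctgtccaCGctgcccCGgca
Mir1a-1hg (chr2:180385354-180385653): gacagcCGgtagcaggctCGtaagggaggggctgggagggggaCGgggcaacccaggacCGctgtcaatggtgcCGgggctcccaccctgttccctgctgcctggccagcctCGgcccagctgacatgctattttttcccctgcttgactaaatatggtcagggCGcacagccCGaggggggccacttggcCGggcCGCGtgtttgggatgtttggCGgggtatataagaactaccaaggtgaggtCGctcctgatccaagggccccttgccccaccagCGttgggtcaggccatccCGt

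The 6720468P15Rik window held 4 CpG, the 1700028I16Rik window 28 and the Mir1a-1hg window 15. Called length around 6720468P15Rik was 1562 and 1671 bp in flox versus 1514 and 1410 bp in KO, so that both KO libraries were below both flox libraries by a small margin. Around 1700028I16Rik it was 900 and 1006 bp in flox versus 782 and 519 bp in KO. Around the start of Mir1a-1hg, the host gene of a muscle microRNA, it was 1370 and 1006 bp in flox versus 899 and 1322 bp in KO, and the groups overlapped. The region at 6720468P15Rik ranked above at least 98.9% of the peaks in each list, against 50.2% at 1700028I16Rik and 16.4% at Mir1a-1hg, an order set by the choice of the first for rank and the others for CpG.

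Short motifs of blood transcription factors were searched in the same windows on both strands. TGTGGT, the core letters bound by RUNX proteins, was in 18.8% of windows inside constant regions, in 22.6% of those without a peak and in 16.8% of all RefSeq windows. AGATAA, which zinc finger factors such as GATA2 recognise, was in 15.2%, 15.4% and 11.2%. CCGGAA, an ETS motif, was in 5.08%, 6.70% and 14.9%. CANNTG, the E-box, reads the same on both strands and was in 81.2%, 80.7% and 72.3%. Matches of different motifs may overlap, and a match describes letters in a window, not a binding site.

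**Figure D1:**
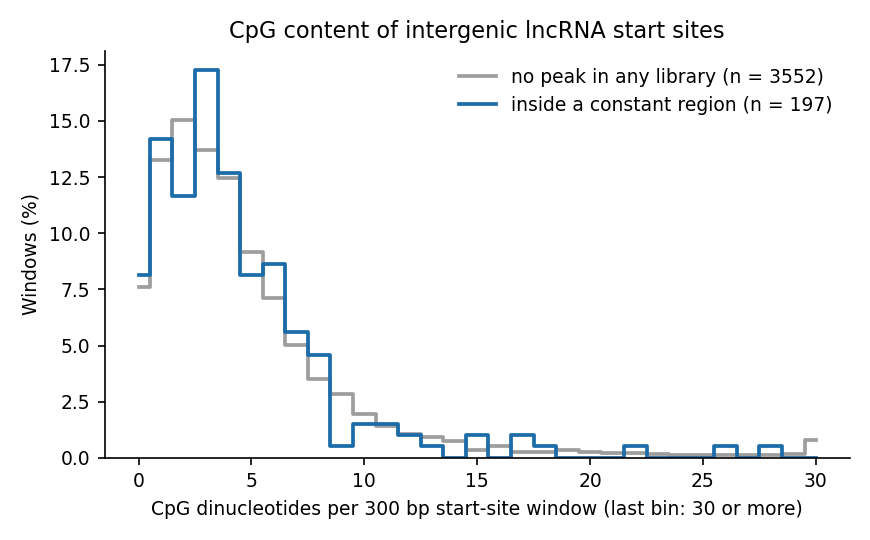
Share of lncRNA start-site windows (y axis, %) by their number of CpG dinucleotides (x axis), for the 197 windows inside a constant intergenic region (blue) and the 3552 that touched no peak (grey). Both outlines have most windows at low counts, with medians of 3 and 4.

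More widely, 2375 of 12408 autosomal lncRNA genes held the midpoint of 1 or more constant intergenic regions, and 89 held 5 or more. Sox2ot, which overlaps the stem cell factor gene Sox2, held 8 in 117.613 kb. Zmiz1os1 and Banf2os held 7 each, Irx3os and Uchl1os 6 each, and Junos, beside the AP-1 gene Jun, 5. Mir1a-1hg held 5 in only 16.199 kb. The lists carry no strand, so a region inside a lncRNA gene is not assigned to that gene's transcription.

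Constant intergenic 5hmC was present at every distance from genes and was densest in the middle of the zone. There were 33.2 regions per Mb of sequence in the zone (733.5 Mb), against 27.4 per Mb inside gene spans, their ends included (26919 regions), and 20.8 per Mb in gene deserts, more than 100 kb from any gene. By distance from the gene end, density was 30.4 per Mb at 1 to 2 kb, 32.1 at 2 to 5 kb, 33.7 at 5 to 10 kb, 34.8 at 10 to 20 kb, 33.9 at 20 to 50 kb and 31.9 at 50 to 100 kb. The median distance was 22691 bp. Of all merged regions under 2500 bp in the zone, 41.2% were called in all 4 libraries, and this share lay between 39.9% and 41.8% in each distance bin.

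The density of all peaks, which does not depend on agreement between libraries, was also lower at both ends of the zone than in between. It was lowest at 1 to 2 kb (52.1 to 55.2 peaks per Mb over the 4 libraries) in 3 libraries, and in flox replicate 2 at 50 to 100 kb. At 10 to 20 kb, density was 59.1 and 59.6 peaks per Mb in flox replicates 1 and 2, and 58.4 and 60.3 in KO replicates 1 and 2. At 50 to 100 kb it was 54.1 ± 0.09 in flox and 55.6 ± 1.84 in KO (SD, n = 2 each), and both KO libraries were above both flox libraries (exact permutation p = 0.33, two-sided, the smallest p possible with 2 against 2). In the other 5 bins the groups overlapped (exact permutation p = 1). The median score rank of the constant regions hardly moved with distance, from 66.7 to 70.1 on a scale of 0 to 100 over all bins and libraries.

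**Figure D2:**
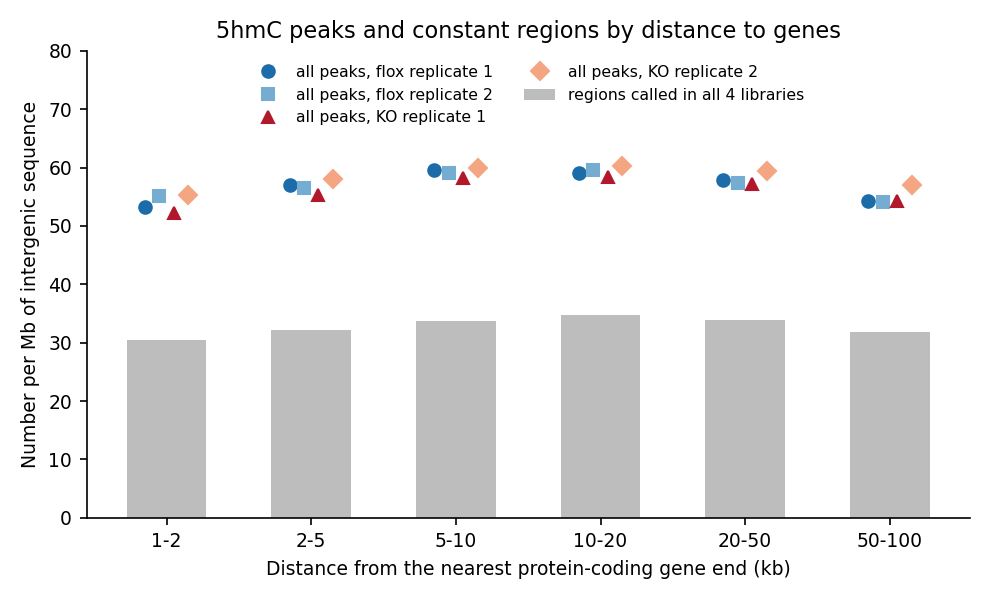
Peaks per Mb of intergenic sequence in each library (points) and constant intergenic regions per Mb (grey bars), by distance from the nearest protein-coding gene end in kb. Bars run from 30.4 to 34.8 per Mb, and the 4 libraries lie close together in each bin.

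Constant intergenic regions were somewhat denser before genes than after them. Where the strand of the nearest gene was known, there were 33.8 per Mb upstream of the 5′ end (10425 regions) and 32.1 per Mb downstream of the 3′ end (8420 regions). Within 10 kb of the gene, the values were 33.8 upstream and 30.8 downstream. Strand was unknown for the nearest gene of 5502 regions. Chromosome 11 had the highest density (41.2 per Mb), followed by chromosome 5 (39.5), and chromosome 7 the lowest (26.0).

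Many regions lay near another along the chromosome. Their spacing was not compared with that of regions placed at random at the same density, so it does not show grouping. The median gap to the nearest other constant intergenic region was 8286 bp, and 8954 regions (36.8%) had another within 5 kb. Joining regions with gaps under 5 kb gave 3892 chains of 2 or more, of which 64 had 5 or more. The longest chain had 11 regions in 41244 bp beside Sez6l, a membrane protein gene of neurons (chromosome 5, 112588388 to 112629631). Another on the same chromosome had 9 regions in 29476 bp between Aym1 and Wscd2 (113399847 to 113429322). The third had 8 in 21759 bp beside Rptor, the scaffold subunit of the kinase complex mTORC1 (chromosome 11, 119580140 to 119601898). Most regions were single peaks, since 23181 (95.2%) had exactly 1 peak in each library.

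Within a region the libraries marked many of the same bases, which the choice of regions called in all 4 libraries makes likely. The median width of the merged regions was 1295 bp, and the core covered by all 4 libraries had a median of 700 bp (quartiles 550 and 896). Of all bases in the regions, 56.4% lay under peaks of all 4 libraries and 17.6% under those of 1 library. In 65 regions no base was shared by all 4, so these were joined only through overlapping neighbours. The rank of a peak within its own list, here called its percentile, had a median of 68.1 in flox replicate 1, 67.6 in flox replicate 2, 67.9 in KO replicate 1 and 68.9 in KO replicate 2. Taking for each region the list where it ranked lowest, the median was 44.3. In all 4 lists 2169 regions (8.91%) were among the top 10%, whereas 7062 (29.0%) were among the lowest 25% of 1 or more lists. Only 100 regions were among the lowest 25% of every list.

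Called length, the bases of a region under a library's peaks, was close to that of constant regions in gene bodies and longer than that in gene deserts. The same peak calls and width limit chose the regions of every class and bound their called lengths. The differences therefore describe only regions chosen in this way. The median called length of constant intergenic regions was 1005 and 970 bp in flox versus 995 and 961 bp in KO. In gene bodies (25747 constant regions under the same width limit) it was 1004 and 970 bp in flox versus 995 and 959 bp in KO, a difference of 0.75 ± 0.957 bp (SD, n = 4 libraries, exact sign-flip permutation p = 0.5, two-sided). More than 100 kb from genes (14172 regions) it was 923 and 898 bp in flox versus 930 and 902 bp in KO. This was shorter by 69.5 ± 9.88 bp than in the constant intergenic regions, in 4 of 4 libraries (exact sign-flip permutation p = 0.13, the smallest possible). Within 1 kb of gene ends (2232 regions), medians were 1081 and 1022.5 bp in flox versus 1045.5 and 1019 bp in KO, above the constant intergenic regions in each library (difference -59.25 bp, exact sign-flip permutation p = 0.13). The median percentile of the constant intergenic regions was 3.41 to 4.63 points above that of gene deserts in the 4 libraries. It was slightly lower than that of gene bodies in each library (a difference of -0.905 to -0.0782 points), and it differed from that of gene ends by -5.69 to -3.71 points.

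**Figure D3:**
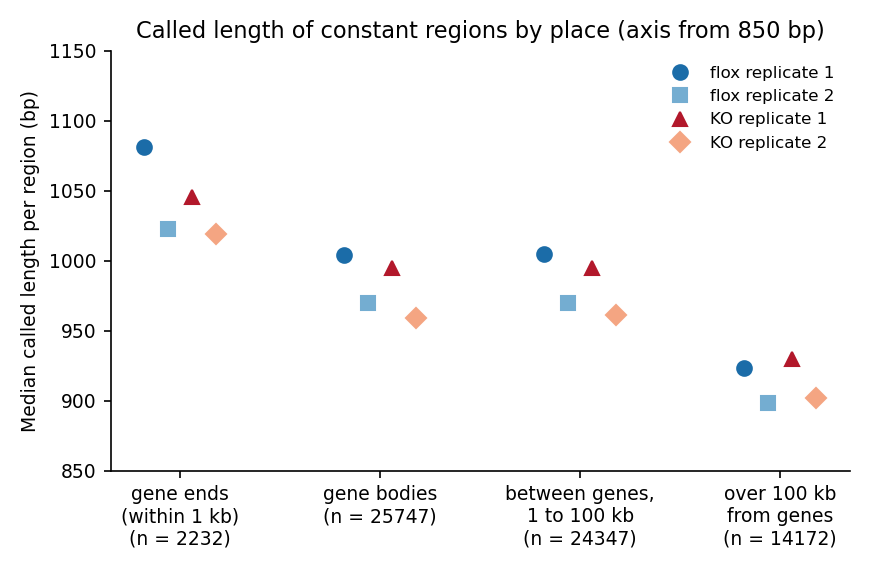
Median called length per constant region (y axis, bp, not starting at 0) in each library, for gene ends, gene bodies, the zone of 1 to 100 kb and gene deserts. Gene deserts lie lowest in all 4 libraries, and the zone lies within 2 bp of gene bodies in each library.

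The 10 regions with the highest percentile in their lowest list were near genes of varied function. The first lay 46.3 kb upstream of Slc1a4, a transporter of neutral amino acids (chromosome 11, 20378109 to 20379990). Its scores were 2170.81 and 1882.08 in flox versus 2316.27 and 2095.04 in KO, with 1731 and 1827 bp called in flox versus 1442 and 1795 bp in KO. The called lengths of the groups overlapped. The second lay 32.8 kb upstream of Gprc5b, an orphan G protein-coupled receptor (chromosome 7, 119026815 to 119029150), with 2050 and 1823 bp in flox versus 2090 and 2081 bp in KO. The third lay 4.84 kb downstream of Pnrc1, a nuclear receptor coactivator (chromosome 4, 33239388 to 33241769), with 2201 and 1894 bp in flox versus 2156 and 2213 bp in KO. The others were nearest to 4930503L19Rik, Jazf1 (a zinc finger protein), Fbxo45 (a ubiquitin ligase subunit), Aldoart2 (an aldolase A retrogene), Pmpcb (a subunit of the mitochondrial processing peptidase), Mvb12b (a subunit of the ESCRT-I complex) and Rap2a (a small GTPase).

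Genes of blood stem and progenitor cells, mostly transcription factors, had constant 5hmC around them in most cases. Of the 24 genes of this list with at least 1 kb of the zone nearest to them, 21 had 1 or more constant intergenic regions, 80 in all, against 8938 of 17537 (51.0%) of all autosomal protein-coding genes. Since genes differ in how much of the zone is theirs, density is given too, and it was 4.33 regions per 100 kb for the list and 3.32 for all genes. Sox4, a factor of progenitor cells, had 10. Runx1, the factor whose DNA-binding domain AML1-ETO carries, had 9, of which 6 lay upstream and 3 downstream. Erg, an ETS factor of stem cells, had 9 in 85.357 kb. Kit, the receptor for stem cell factor, had 9. Gata2, Myb and Mecom had 3 each, and Tal1, Lmo2 and Meis1 had 1 each. Gfi1b and Hoxa9 had none, with 20.59 and 2.174 kb of the zone. These counts depend on the gene set and on weak peaks. With all RefSeq genes in place of protein-coding ones, 0 regions were nearest to Sox4, 3 to Runx1, 1 to Kit and 7 to Erg, and with peaks of score 100 or more there were 4 at Sox4, 3 at Runx1, 4 at Kit and 8 at Erg.

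The highest ranked region nearest to Runx1 lay 47.1 kb upstream (chromosome 16, 92872299 to 92874130). Called length there was 1832 and 1768 bp in flox versus 1572 and 1579 bp in KO, so both KO libraries were below both flox libraries, by a log2 difference of -0.18 (SE 0.17). This did not pass the test over all regions described below (limma adjusted p = 0.971). At Erg, the highest ranked region was 12.4 kb downstream (chromosome 16, 95345806 to 95347758), with 1816 and 1380 bp in flox versus 1953 and 1299 bp in KO. At Kit it was 3.86 kb downstream (chromosome 5, 75659835 to 75661334), with 1440 and 1193 bp in flox versus 1255 and 1260 bp in KO. The groups overlapped at both.

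Among myeloid genes, Irf8 and Csf3r stood out by number. Of 25 genes, 18 had 1 or more regions (68 in all, 5.48 per 100 kb). Irf8, a factor of monocyte and dendritic cell development, had 15, of which 13 lay downstream of the gene, spread from 10.4 to 97.95 kb past its end. Csf3r, the receptor for the granulocyte growth factor G-CSF, had 10, all upstream, from 9.30 to 92.4 kb. Klf4, a factor of monocyte differentiation, had 8, and Cebpb, a factor of inflammatory and stress-induced myelopoiesis, had 6. Cebpa, the main granulocyte factor, had 3. Spi1, Mpo, Prtn3, Itgam, Lyz2, Cd14 and Fcgr2b had none. The zone nearest to Mpo, Prtn3 and Spi1 was small (2.935, 1.923 and 5.143 kb), which leaves little room for a region. That of the others ran from 16.588 kb (Cd14) to 29.14 kb (Itgam).

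The outermost of the Irf8 regions ranked highest (chromosome 8, 120853488 to 120855799, 97.95 kb downstream). Its scores were 904.45 and 869.66 in flox versus 769.86 and 1064.30 in KO, with 1976 and 2212 bp called in flox versus 2117 and 2002 bp in KO. The highest ranked Csf3r region (chromosome 4, 125945406 to 125947024, 77.2 kb upstream) had 1241 and 1576 bp in flox versus 1122 and 1266 bp in KO. The groups overlapped at both. Nearest means nearest protein-coding gene: with all RefSeq genes in place of these, most of these regions lay in or nearest to another RefSeq gene, and 1 region was left to Irf8, 2 to Klf4 and 0 to Csf3r. With peaks of score 100 or more there were 10 at Irf8, 5 at Klf4 and 3 at Csf3r.

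Genes of cytokine signalling through JAK and STAT had constant regions at several inhibitors and kinases, but not at all of them. Of 24 genes, 15 had 1 or more (54 in all, 4.67 per 100 kb). Kitl, which encodes stem cell factor, the ligand of Kit, had 7 (0 with all RefSeq genes and 1 with peaks of score 100 or more). Among receptors, Il6st, the shared signalling chain of the IL-6 family, had 5 and Il6ra had 1. Jak1 had 6, all upstream, and Jak2 had 1. Among feedback inhibitors, Socs3 had 6 in 52.256 kb, Socs1 4 in 18.663 kb, Socs2 4 and Cish 2. Pim1, a kinase gene induced by STAT5, and Ptpn11, the phosphatase SHP2, had 5 each. Stat3 and Stat5b had none, with 3.878 to 7.571 kb of the zone each, which leaves little room for a region. Jak3, Tyk2 and Sh2b3 also had none, with 1.304, 8.053 and 4.676 kb.

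Of 22 genes listed as linked to AML1-ETO, 18 had 1 or more regions (69 in all, 4.27 per 100 kb). The list held partners of AML1-ETO, genes of its complexes and RUNX family genes, and also others such as Pou4f1, Ubash3b and Cdkn1a. Ets2 had 9, Hdac2, a histone deacetylase of corepressor complexes, 8, and the RUNX family genes Runx2 and Runx3 8 and 6. With all RefSeq genes 1 was left to Ets2 and 8 each to Hdac2 and Runx2, and with peaks of score 100 or more there were 3 at Ets2, 2 at Hdac2 and 3 at Runx2. All 8 at Runx2 lay downstream. The highest ranked of them (chromosome 17, 44424222 to 44426586) had 1714 and 1825 bp called in flox versus 2177 and 2032 bp in KO. Both KO libraries were above both flox libraries there, by a log2 difference of 0.26 (SE 0.17), which did not pass (limma adjusted p = 0.966). The E proteins Tcf12 and Tcf4, which bind ETO, had 5 each. Runx1t1, the gene of ETO itself, had 3, and Cbfb, the partner of RUNX proteins, 2. Hdac1 and Sin3a had none, with 1.849 and 3.744 kb of the zone.

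Gene lists of other lineages were not lower throughout. Lymphoid genes had the highest density (6.38 per 100 kb, 86 regions at 16 of 21 genes), with 16 at Bcl11b, a T cell factor, 10 at Foxo1 and 9 at Gata3. Genes of neural development had 4.08 per 100 kb (89 regions at 17 of 21 genes), erythroid and mast cell genes 3.82 (28 at 10 of 16), liver and gut genes 2.43 (21 at 9 of 16) and housekeeping genes 5.39 (18 at 5 of 12). Of the 18 regions at housekeeping genes, 10 were at Ywhaz alone, and the median gene of that list had none. All lists are described by counts, and none was tested against another.

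**Figure D4:**
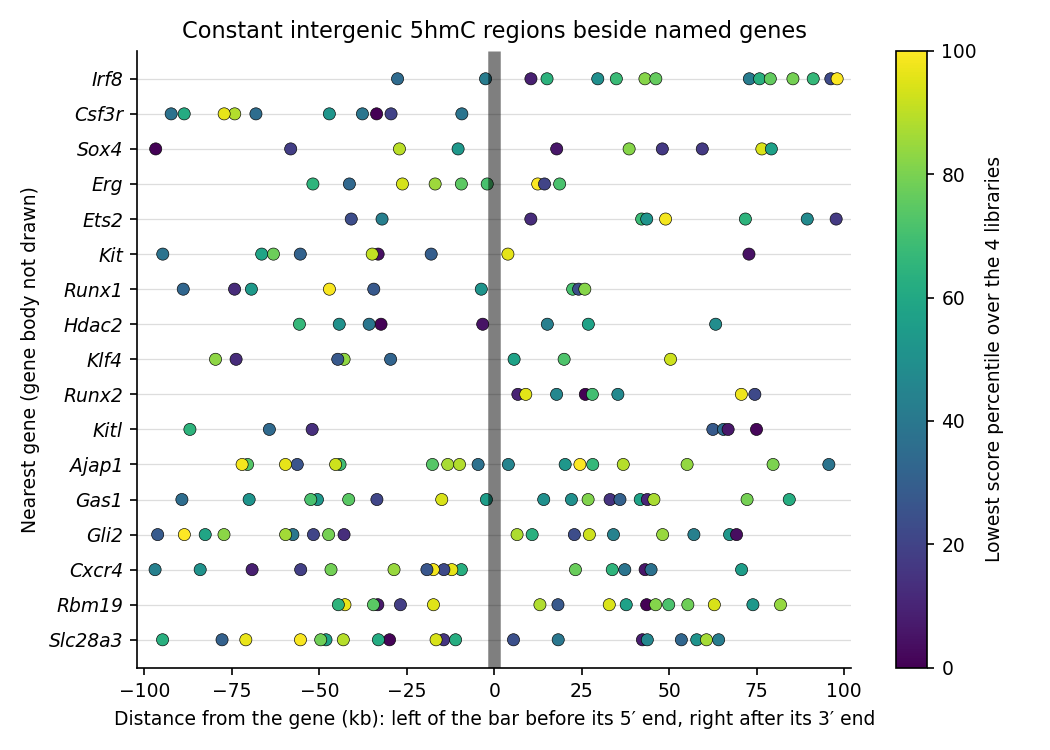
Constant intergenic regions (points) by distance from the nearest gene (x axis, kb), left of the bar before the 5′ end and right of it past the 3′ end, for the named genes whose strand was known. Colour gives the lowest score percentile of the region over the 4 libraries, and Irf8 has 13 of its 15 regions to the right.

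The 8 genes nearest to most constant intergenic regions had 17 to 20 each. Slc28a3, a nucleoside transporter, and Tbx5, a transcription factor of heart and forelimb, had 20 each. Ajap1 (an adherens junction protein), Ebf2 (a transcription factor of brown fat), Gas1 (a coreceptor of hedgehog ligands) and Gli2 (a transcription factor of the hedgehog pathway) had 18 each. Cxcr4, the receptor for CXCL12 that keeps blood stem cells in the marrow, and Rbm19, an RNA-binding protein of the nucleolus, had 17 each. Each of these genes had 153.894 to 198 kb of the zone, where the median over all genes was 21.688 kb. With all RefSeq genes in place of protein-coding ones the counts were 5 at Slc28a3, 6 at Tbx5, 9 at Ajap1, 0 at Ebf2, 3 at Gas1, 9 at Gli2, 11 at Cxcr4 and 4 at Rbm19. With peaks of score 100 or more they were 8 to 13, the lowest at Cxcr4.

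The 17 regions of Cxcr4 lay from 9.45 to 97.0 kb away, 11 upstream and 6 downstream. The highest ranked (chromosome 1, 128609011 to 128610501, 17.5 kb upstream) had scores of 608.66 and 629.36 in flox versus 542.20 and 568.05 in KO, and 1340 and 1018 bp called in flox versus 1329 and 1491 bp in KO. The called lengths of the groups overlapped. The highest ranked region of Tbx5 (chromosome 5, 119742281 to 119744118) had 1160 and 994 bp in flox versus 1671 and 1834 bp in KO. Both KO libraries were above both flox libraries at Tbx5, by a log2 difference of 0.72 (SE 0.20), which did not pass the test over all regions (limma adjusted p = 0.966).

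The share of called 5hmC that lay in these regions was similar in flox and KO. Since the regions were chosen as called in both genotypes, this is a description with no test. They held 22.5318% and 22.4155% of called bases in flox replicates 1 and 2, and 22.9705% and 22.0366% in KO replicates 1 and 2. The KO values lay on either side of the flox values. The means were 22.5% ± 0.08 in flox and 22.5% ± 0.66 in KO (SD, n = 2 each). Of all peaks in the zone, 59.3% and 59.5% in flox and 60.0% and 57.9% in KO were in constant regions. The median called length was 987.5 ± 24.7 bp in flox and 978 ± 24.0 bp in KO.

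The called length of single regions was compared between genotypes with limma on log2 bp over all 68363 autosomal regions called in all 4 libraries, scaled to the same median in each library. Since every region had to be called in all 4 libraries, those lost or gained in 1 genotype are outside this test, and the limits on peak calls and width bound the difference. With Benjamini-Hochberg adjustment, 0 of the 24347 constant intergenic regions passed an adjusted p of 0.05 in either direction (percent called over all regions 0 and 0), and no limma adjusted p was under 0.553. Unadjusted p-values were under 0.05 in both directions: 628 regions (2.58%) were lower in KO and 580 (2.38%) higher, near the 2.63% and 2.39% over all regions. The KO libraries were both under both flox libraries in 4104 regions (16.9%, against 17% over all regions) and above them in 4169 (17.1%, against 16.8%). The median log2 difference, KO minus flox, was -0.0008, with quartiles of -0.20 and 0.20. The median SE of a single region was 0.28. In 99.4% of regions the fitted difference was within 1 on the log2 scale, and it was beyond that in 151. On simulated called lengths with 1 spread for all regions, the same test found 25 of 100 planted log2 changes of 1. It found 98 of 100 planted changes of 2, and made 8 false calls. A log2 change of 1 at a single region could therefore be missed.

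The 6 regions with the smallest p in each direction are named as the extremes of a set in which none passed. Lower in KO, a region 2.40 kb downstream of Nudt19, a nucleotide hydrolase (chromosome 7, 35543547 to 35546016), had 2020 and 1768 bp called in flox versus 671 and 577 bp in KO (KO minus flox -1.59 on the log2 scale with an SE of 0.22, limma adjusted p = 0.553). A region 5.15 kb upstream of Padi4, a neutrophil enzyme that citrullinates histones (chromosome 4, 140778206 to 140780579), had 2247 and 2323 bp in flox versus 969 and 925 bp in KO (log2 difference -1.26, SE 0.19). The scores at Padi4 were 303.46 and 403.97 in flox versus 207.48 and 194.08 in KO. At Nudt19 they were 126.79 and 126.53 in flox versus 105.65 and 251.07 in KO, where the groups overlapped. Scores are not compared between groups. The others were nearest to Tomm20, a mitochondrial import receptor (log2 difference -1.33), Gja5, a gap junction protein (-1.28), Aga, a lysosomal enzyme (-1.58), and Ssbp4 (-1.39). When peaks were merged again without flox replicate 1, the difference at Nudt19 was only -0.13, and without flox replicate 2 that at Aga was -0.73. At Nudt19 it was -0.89 with peaks of score 100 or more.

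Higher in KO, a region 87.1 kb downstream of Gabrb2, a subunit of the GABA-A receptor (chromosome 11, 42718478 to 42720879), had 694 and 608 bp in flox versus 2255 and 2060 bp in KO (KO minus flox 1.74 on the log2 scale with an SE of 0.21, limma adjusted p = 0.553). Its scores were 137.81 and 150.31 in flox versus 91.28 and 81.21 in KO. A region 13.2 kb downstream of Nr2f2, an orphan nuclear receptor (chromosome 7, 70337582 to 70339840), had 932 and 907 bp in flox versus 2259 and 1737 bp in KO (log2 difference 1.12, SE 0.21). The others were nearest to Srbd1 (1.74), Myof, a membrane repair protein (1.21), Cap2, an actin regulator (1.19), and Sox13, a SOX family transcription factor (1.17). Without 1 KO library, the difference turned to -0.09 at Srbd1 and -0.21 at Cap2 (both without KO replicate 1) and to -0.03 at Myof (without KO replicate 2). It shrank to 0.86 at Gabrb2 and 0.41 at Nr2f2 without KO replicate 1, and to 0.28 at Sox13 without KO replicate 2. With peaks of score 100 or more it was 0.67 at Myof, 0.54 at Cap2 and 0.69 at Sox13. All 12 regions were 1884 to 2470 bp wide, above the third quartile of 1483 bp of the set.

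**Figure D5:**
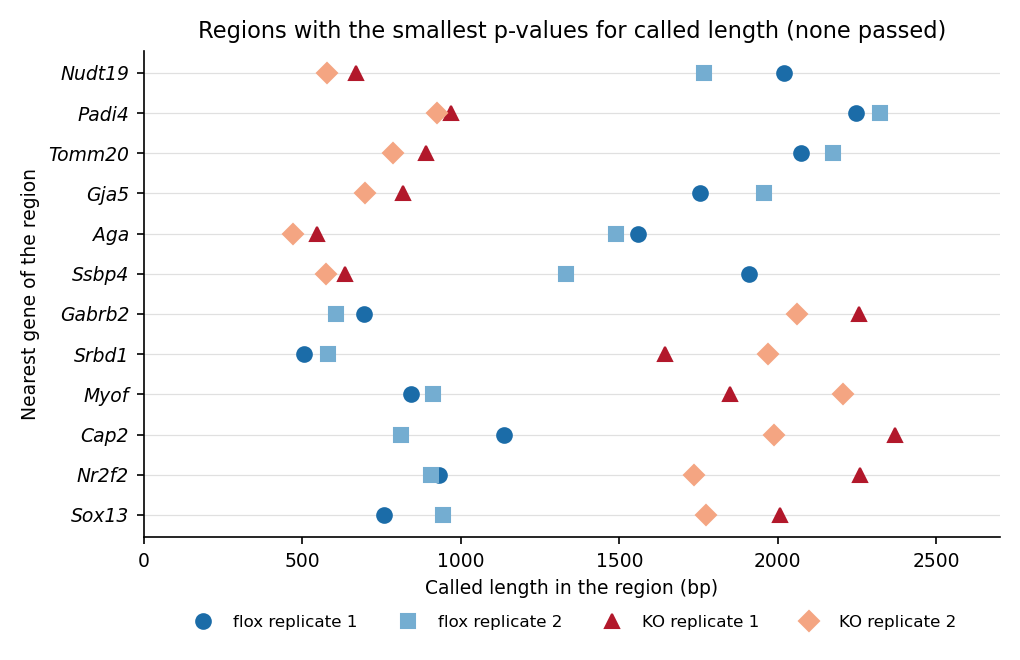
Called length (x axis, bp) in each of the 4 libraries for the 12 regions with the smallest p-values, named by nearest gene. Flox (blue) and KO (red) do not overlap in any of the 12, and none passed the test over all regions.

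None of the blood gene lists had a region that passed the called length test. Of the 81 regions nearest to stem and progenitor genes, which are the 80 counted above and 1 at Hoxa10 (a gene with under 1 kb of the zone), 43 were lower and 38 higher in KO (median log2 difference -0.02). Myeloid genes had 34 lower and 34 higher (0.01), genes of cytokine signalling 28 and 26 (-0.03), and genes linked to AML1-ETO 27 and 42 (0.05). Over all constant intergenic regions 12206 were lower and 12141 higher (-0.0008). Of the 12 highest ranked regions at blood genes, the largest difference was at Sox4 (chromosome 13, 28871320 to 28873639), with 1922 and 2014 bp in flox versus 1485 and 1278 bp in KO (KO minus flox -0.50 on the log2 scale with an SE of 0.18, limma adjusted p = 0.966).

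Libraries of the same genotype shared about as many called bases within these regions as libraries of different genotype. The share of called bases in common (Jaccard index) was 0.730 for the flox pair and 0.730 for the KO pair, and 0.727 to 0.731 for the 4 pairs across genotypes. Lengths of the same region correlated between libraries with a Spearman rho of 0.526 to 0.540 over 24347 regions, and scores with 0.643 to 0.667. These describe regions that share libraries, so no p is given.

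Regions called in 1 genotype alone lay near few of the constant ones. A flox-only region, held by both flox libraries and by no KO library, lay within 10 kb of 1378 constant intergenic regions (5.66%), and a KO-only region, with the reverse pattern, of 1324 (5.44%). Over all autosomal regions called in all 4 libraries the shares were 5.31% and 5.05%. In gene bodies they were 5.57% and 4.68%, and in gene deserts 3.68% and 4.97%. Without 1 library the ratio of the 2 counts ran from 0.715 to 1.36, against 1.04 with all, and so lay on either side of 1. Among blood genes, 3 regions at Cebpb and 3 at Ptpn11 had a flox-only neighbour and none a KO-only one, as did 2 each at Gata2, Myb, Jun, Cish, Cebpe and Cbfa2t3. At Runx1t1 and Tcf4, 3 regions each had a KO-only neighbour and none a flox-only one, and at Erg 2 did. Runx3 had 1 of each kind, and many blood genes, such as Runx1, Csf3r, Jak1 and Klf4, had 0 of either. Several regions of a gene may lie near the same neighbour, and no gene was tested.

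The limits of the rule fell between regions of nearly equal width or distance. The widest region kept was 2499 bp wide, near Olfr214, with 1928 and 2179 bp called in flox versus 2239 and 2001 bp in KO. The first left out was 2501 bp wide, near 1700001O22Rik, with 2145 and 1660 bp in flox versus 2384 and 2109 bp in KO. At the inner distance limit, a region 1001 bp from Cnga3 was kept and 1 at 1000 bp from Olfr1039 was not. At the outer limit, a region 99992 bp from St8sia3 was kept and 1 at 100011 bp from Kcnk2 was not. In the zone, 745 constant regions were left out for width, and 147 regions called in all 4 libraries were not on autosomes.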

How the data were processed

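The authors deposited 1 peak list per library on GRCm38. The submitters' processing notes name CASAVA 1.8, Bowtie and MACS 1.4 without roles. Caller settings and its control library: not given in the sources used here. For each peak the authors deposited a score and a p-value, and the score was checked to be -10 times log10 of the deposited p-value. Depth is unknown, and no interval needing it is given. Neither the input library nor the IgG library was used.

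Peaks were merged (1 bp or more) and placed against RefSeq genes of GRCm38.p6 (20665 autosomal protein-coding genes, strand known for 16457). Density used the sequence from 3 Mb of each autosome. Called length was tested with limma 3.58.1 (trend, robust) in R 4.3.3 with Benjamini-Hochberg adjustment, and the code was tested on simulated data. Library values had two-sided exact permutation tests. Python 3.11.15, pandas 2.3.3, numpy 2.4.6, scipy 1.17.1 and matplotlib 3.10.9 were used. The regions and gene lists were chosen with earlier results of these data known. Named by rule were the 10 highest ranked regions, the 12 blood genes and the 8 genes overall with most regions, up to 6 regions a direction by p, 3 chains and the regions at each limit. Symbols ending in Rik or of Gm plus digits were left out when blood genes and genes with most regions were named. They stay in the counts over all protein-coding genes. Some genes that the rule names are left out of the text. Sequence windows and lncRNA genes were chosen after their values were seen. Whether replicate numbers pair libraries is not stated, and the main test did not use them as pairs. The closing section gives the alternatives.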

Additional observations from a re-analysis of the deposited data

How the results depend on the processing

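Depth is unknown and limits what absence of a peak means. The difference in share of called bases between KO and flox was 0.0299 percentage points, and it turned to -0.415 with peaks of score 100 or more and to -0.00200 without the width limit. It ran from -0.499 to 0.504 when each library was left out (below 0 without flox replicate 2 and without KO replicate 1). With score 100 or more there were 9945 regions at 13.6 per Mb, a median percentile of 86.9 (main value 68.1) and a within-genotype minus between-genotype Jaccard index of 0.00357 (main value 0.00046). The 50000 highest scored peaks gave 9070 regions. Requiring peaks over 50% of a region gave 26.4 per Mb and a percentile of 69.7. With all RefSeq genes these were 28.6 and 66.9, and the difference in called length from gene bodies was -19.75 bp. Without the width limit they were 34.2 and 69.0. Leaving out each library gave 26678 to 27274 regions, 36.4 to 37.2 per Mb, percentiles of 65.4 to 65.6, Jaccard differences of -2.43e-06 to 0.00183, a difference from gene bodies of -1 to 1.67 bp, and non-overlapping groups in 66.8% to 67.2% of regions (34.0% with all 4, since 1 library against 2 separates more often). It also gave log2 differences of -0.0857 to 1.86 at Srbd1, -0.215 to 1.404 at Cap2 and -0.0325 to 1.37 at Myof.

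Regions past the adjusted threshold of the called length test were 0 under each alternative run that kept all libraries. In those runs the 12 named regions had limma adjusted p of 0.156 to 0.956. Their sign was the same in 101 of 104 alternative values, but not the size. This count does not test the sign, since many values refit the same regions and libraries. With a replicate block, or without limma's trend and robust options, the difference cannot move. None of the 12 had a value when peaks of each library had to cover at least 50% of the region. Aga, Gabrb2, Srbd1 and Nr2f2 had none with peaks of score 100 or more. Without 1 library the difference was as small as -0.13 at Nudt19, -0.73 at Aga, 0.86 at Gabrb2, 0.41 at Nr2f2 and 0.28 at Sox13. With the replicate number as a block 0 regions passed and 1253 had an unadjusted p under 0.05, against 1208 without it. Same-numbered libraries did not deviate together in called length (correlation -0.007 over regions). This cannot exclude a shared culture or preparation, and the main test did not take the number as a pairing.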
